A study of Mus musculus with 160 samples.

Results

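How the R6/2 genotype changed RNA was compared between a skeletal muscle and the heart of the same mice. For every gene, the R6/2 minus wild-type difference in heart was subtracted from the same difference in tibialis muscle. The result, called the interaction here, is a log2 value that is positive where the tibialis effect was the higher of the pair and negative where it was the lower. It rests on 32 of the 160 libraries of the series, 1 tibialis and 1 heart library from each of 16 vehicle-dosed mice, joined by the animal number in the labels. The mice were 8 wild type and 8 R6/2, with 4 males and 4 females per genotype, all C57BL/6J, and vehicle was given orally 2 times a day to every one of them. R6/2 mice carry Tg(HDexon1)62Gpb, a transgene with exon 1 of the human huntingtin gene and a long CAG repeat, expressed from the human promoter throughout the body, so that neither tissue is altered alone. The labels used here give no age. The other 16 mice of the series, all R6/2, were given 30 or 100 mg/kg of CHDI-00390576, which inhibits the class IIa histone deacetylases, and entered no test here.

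Skeletal muscle and heart are both striated muscle and share much of the sarcomere, but a tibialis fibre contracts at the command of a motor nerve and draws largely on glycogen and fast myosins, whereas a cardiomyocyte beats without a nerve command and burns mainly fatty acids. When a skeletal fibre loses its nerve or wastes, it is known to spread acetylcholine receptors along the membrane and to express embryonic and slow-type genes. The R6/2 line is a model of Huntington's disease in which muscle wasting and heart dysfunction accompany the brain disease.

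Total counts per library, in units of 1000000, were 33.4 to 39 in tibialis and 34.4 to 38.6 in heart. Defining markers separated the tissues. CPM here are counts per 1000000 counts of the genes tested below, after TMM scaling. Genes not tested, such as Myh4, have a CPM and enter sums but are not in that base. Skeletal myofibre markers summed to 145089 to 170798 CPM in wild-type tibialis and 33148 to 51069 in R6/2 tibialis, against 776 to 1589 in heart. Cardiomyocyte markers summed to 40502 to 57217 CPM in heart and 165 to 569 in tibialis. The cardiac genes Mybpc3, Myl7, Nppb and Bmp10 had a median of 0 in both tibialis groups, and the fast myosin gene Myh4 reached at most 15.3 CPM in a heart library, so genes at that level in the other tissue may be traces of dissection, which was not tested. Gm12695 marks the site where the R6/2 transgene sits in the mouse genome and served as the check of genotype labels. It had medians of 1.81 CPM in R6/2 tibialis and 1.91 CPM in R6/2 heart and 0 in both wild-type groups, where the highest libraries held 0.0363 and 0.184 CPM. In bulk tissue, fewer cells of a type and less RNA per cell cannot be told apart.

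Of 14127 genes with enough counts in each tissue, 4653 (32.9%) passed the interaction test at an adjusted p under 0.05, by edgeR's quasi-likelihood test with the mouse as a block. The interaction was positive for 2111 genes (14.9%) and negative for 2542 (18%), and it exceeded 1 in size for 579 of them (4.1%), 281 positive (1.99%) and 298 negative (2.11%). Within tissues, 7184 genes (50.9%) passed in tibialis, 3706 higher in R6/2 (26.2%) and 3478 lower (24.6%). In heart 2017 genes (14.3%) passed, 998 higher (7.06%) and 1019 lower (7.21%). The SD of the genotype effect over genes was 0.51 in tibialis and 0.27 in heart. Among the interaction calls, 3547 genes had passed in tibialis and not in heart, 245 in heart and not in tibialis, and 352 in neither (2.49%). In 271 genes the interaction and heart tests passed with the larger effect in heart (1.92%). At an unadjusted p under 0.05, 42.1% of genes passed the interaction test. For 1235 genes (8.74%) the within-mouse differences between tissues of the 8 R6/2 mice did not overlap those of the 8 wild-type mice, and 1233 of these were called (8.73%). Across the 14127 genes, which are not independent replicates, the effects in tibialis and heart correlated with Pearson's r = 0.37.

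**Figure D1:**
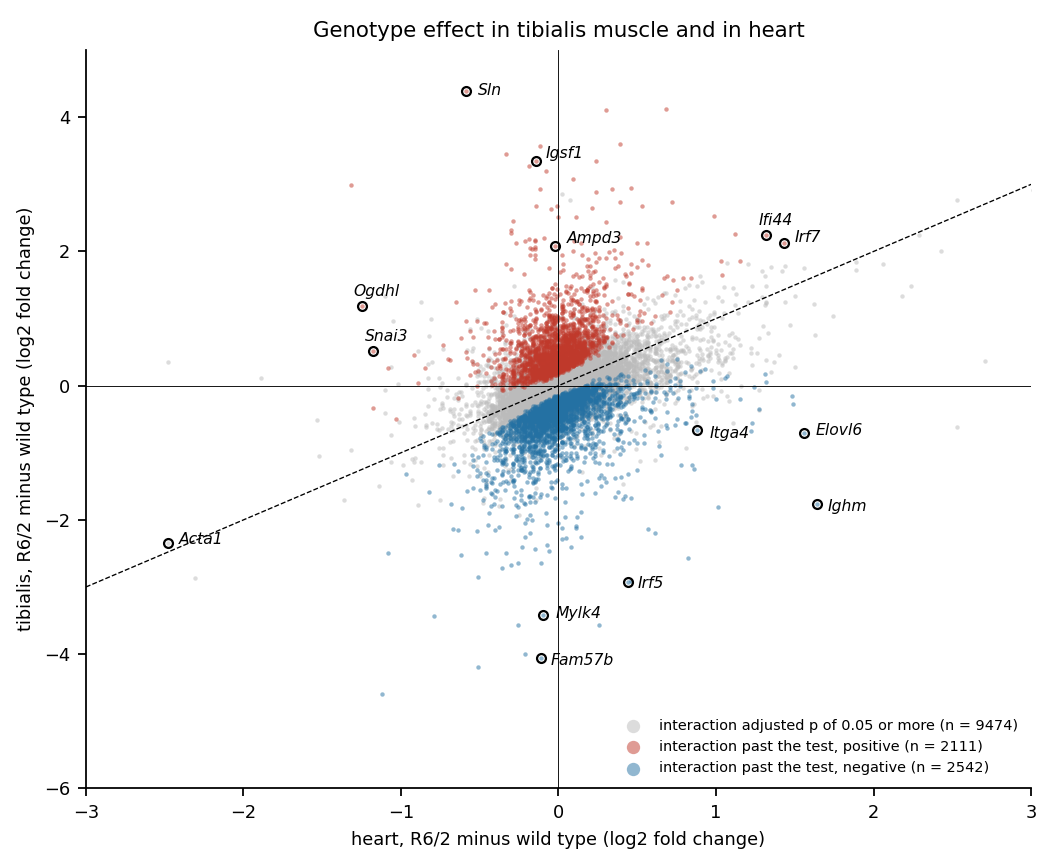
Genotype effect of 14125 genes in heart (x axis, log2 fold change) against tibialis (y axis, log2 fold change), with 2 genes outside the axes. Red and blue points passed the interaction test with a positive or a negative value, grey points did not, and the dashed line marks equal effects. The cloud is taller than wide, with SDs of 0.51 in tibialis and 0.27 in heart, and Acta1 lies near the dashed line.

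These directions are relative to the typical gene, because the scaling moved them. The 10 most abundant genes took 26.2 to 29.5% of counts in wild-type tibialis and 18.4 to 22.1% in R6/2 tibialis, against 31.2 to 34.9% and 29.4 to 32.9% in heart. The TMM scaling used here centres the bulk of genes, and its mean log2 factors were -0.32 in wild-type and 0.30 in R6/2 tibialis, and -0.06 and 0.07 in heart. Library totals here are the summed counts of the tested genes in each library, not of all genes. They leave out untested genes such as Myh4, with medians of 50041 and 11247 CPM in wild-type and R6/2 tibialis. Scaled by these totals alone, the median interaction over all genes moved from -0.03 to 0.46, and on the authors' FPKM values it was 0.50. The median tibialis effect moved from 0.02 to 0.61 and 0.63, and the median heart effect from 0.01 to 0.13 and 0.12. The calls then split 9275 to 390 by totals and 9125 to 290 on FPKM. Of the 2111 positive calls, all held by totals and 1900 under both, and none changed sign on FPKM. Of the 2542 negative calls 277 held under both, with 1421 of them changing sign by totals and 1571 on FPKM. Genes outside the FPKM fit, which held 12085 genes, count as not held. The shift therefore keeps most positive calls (90%) and removes most negative ones (10.9% kept) whatever the gene. By library totals 82.1% of all genes passed as higher and 3.62% as lower in tibialis, and 25.6% and 1.83% in heart. Counts by library totals are to be read against these shares. Counts by TMM are to be read against 26.2% risen and 24.6% fallen in tibialis and 7.06% and 7.21% in heart. For interactions by TMM the shares of all genes were 14.9% positive and 18% negative. Levels and changes below are TMM-scaled, and list medians of the interaction are given relative to all genes. Scaling factors move all genes nearly alike, so equal relative medians by TMM and library totals are no test of a list. Calls that held with their direction under TMM, library totals and FPKM alike are called scaling-independent. A call of a gene that was not in the FPKM fit is thus not counted as scaling-independent, though it was not tested there. Counts of scaling-independent calls are to be read against 90% of all positive and 10.9% of all negative calls.

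**Figure D2:**
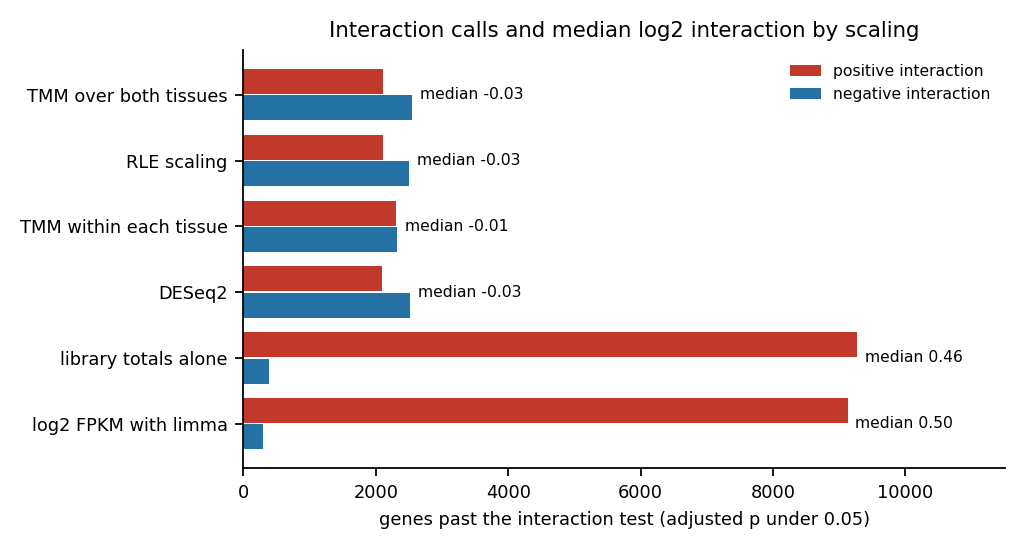
Number of genes past the interaction test (x axis) by scaling or tool (y axis), with the median interaction of all genes printed beside the bars. Red bars are positive and blue bars negative interactions; the 4 upper settings give bars of like length, as the 2111 and 2542 of TMM, and with library totals or FPKM the positive bars reach 9275 and 9125.

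The 10 largest positive interactions belonged to genes that rose in R6/2 tibialis, of which Sln and Ogdhl fell and Serpinb1a rose in heart as well. Sln (ENSMUSG00000042045, chromosome 9, 53850164 to 53854560 in GRCm38) encodes sarcolipin, a small inhibitor of the sarcoplasmic reticulum calcium pump that adult mouse heart makes mainly in the atria. It ran from 0.538 to 2.78 CPM in wild-type tibialis (median 1.16) and from 9.56 to 66.1 in R6/2 tibialis (median 20.3). In heart it ran from 63.3 to 164 CPM in wild type (median 92.7) and from 52.1 to 84.2 in R6/2 (median 63.6). Every R6/2 tibialis lay above every wild-type tibialis, while the heart groups overlapped and R6/2 was the lower. The tibialis effect was 4.39 ± 0.34 (SE, n = 8 per genotype), the heart effect -0.59 ± 0.14, and the interaction 4.91 ± 0.42 (edgeR adjusted p = 8.72e-07). Sln also passed in heart with the opposite sign (edgeR adjusted p = 0.0131). Igsf1 (ENSMUSG00000031111, chromosome X, 49782536 to 49797749), an immunoglobulin-domain membrane protein, ran from 0.799 to 3.38 CPM in wild-type tibialis and from 17.4 to 22.5 in R6/2 tibialis. Its heart groups overlapped, with medians of 17.9 and 16.4 CPM, so that R6/2 tibialis reached the level of heart. Its interaction was 3.46 ± 0.26 (edgeR adjusted p = 5.95e-08).

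The rest of the 10 largest positive values were as follows. Sh2d4a, an SH2-domain adaptor, went from a median of 3.25 to 33.4 CPM in tibialis and stood at 12.7 and 11.4 in heart (interaction 3.29 ± 0.16). Stum went from 2.48 to 18.7 CPM in tibialis against 5.17 and 4.85 in heart (2.97 ± 0.27). Rrad, a small GTPase that restrains L-type calcium channels, ran from 0.472 to 1.11 CPM in wild-type and from 2.56 to 6.72 in R6/2 tibialis, with heart medians of 105 and 91.7 (2.56 ± 0.21). Serpinb1a, an inhibitor of neutrophil proteases, went from 3.32 to 20.6 CPM in tibialis and rose a little in heart, from 3.45 to 4.83 (tibialis 2.74 ± 0.11, heart 0.39 ± 0.09, interaction 2.33 ± 0.09). Hectd2os (2.48 ± 0.29) and Shroom3 (2.28 ± 0.32), an actin-binding protein, completed the set with Ogdhl, an opposite change, and Cish. The latter, a brake on cytokine receptor signalling, overlapped between the tibialis groups, which ran from 1.52 to 17.3 and from 7.41 to 54.5 CPM (2.83 ± 0.48, edgeR adjusted p = 0.000467). All 10 stayed positive under every alternative in which they were tested, and Cish alone missed the threshold in 1 of them.

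The 10 largest negative interactions belonged to genes that fell in R6/2 tibialis, of which Irf5 rose and Adamts8 fell in heart as well. Fam57b (chromosome 7, 126797668 to 126830219), which encodes a protein with a ceramide-synthase-like domain, ran from 49.2 to 91.3 CPM in wild-type tibialis and from 2.66 to 5.23 in R6/2 tibialis. Heart ran from 3.81 to 7.45 CPM in wild type and from 3.53 to 5.78 in R6/2. The R6/2 tibialis thus came down to the range of heart, and the interaction was -3.99 ± 0.19 (edgeR adjusted p = 1.73e-10). Mylk4 (chromosome 13, 32700834 to 32783954), a myosin light chain kinase of striated muscle, ran from 1039 to 3198 CPM in wild-type tibialis (median 2270) and from 144 to 215 in R6/2 tibialis (median 204). In heart it ran from 82.1 to 239 and from 120 to 207 CPM, overlapping groups with medians of 186 and 163. Its interaction was -3.34 ± 0.26 (edgeR adjusted p = 8.27e-08).

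The rest of the 10 most negative included 4 metabolic enzymes. Gpd1, the cytosolic glycerol-3-phosphate dehydrogenase, ran from 673 to 890 CPM in wild-type and from 108 to 230 in R6/2 tibialis, and its overlapping heart groups had medians of 48.9 and 88.9 (-2.82 ± 0.26). Pfkfb3, which makes the activator of phosphofructokinase, went from a median of 177 to 43.9 CPM in tibialis and stood at 12.9 and 17.6 in heart (-2.79 ± 0.39). Smox, the spermine oxidase of polyamine breakdown, went from 106 to 18.1 CPM in tibialis and stood at 14 and 13.2 in heart (-2.54 ± 0.26). Car3, a carbonic anhydrase abundant in slow muscle and fat, went from 2677 to 450 CPM in tibialis, while its heart libraries ran from 12.7 to 156 in wild type and from 15.3 to 322 in R6/2 (-3.28 ± 0.71). Adamts8, an extracellular protease, fell in both tissues, with effects of -3.43 ± 0.49 and -0.79 ± 0.21 (interaction -2.48 ± 0.53), and Mdga1, an adhesion protein, fell in tibialis from 30.1 to 4.03 CPM (-2.46 ± 0.28). Ighm, the immunoglobulin M heavy chain of B cells, is in the set with an interaction of -3.18 ± 0.61, but its groups overlapped in both tissues and a single R6/2 heart held 416 CPM against a group median of 48.5.

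**Figure D3:**
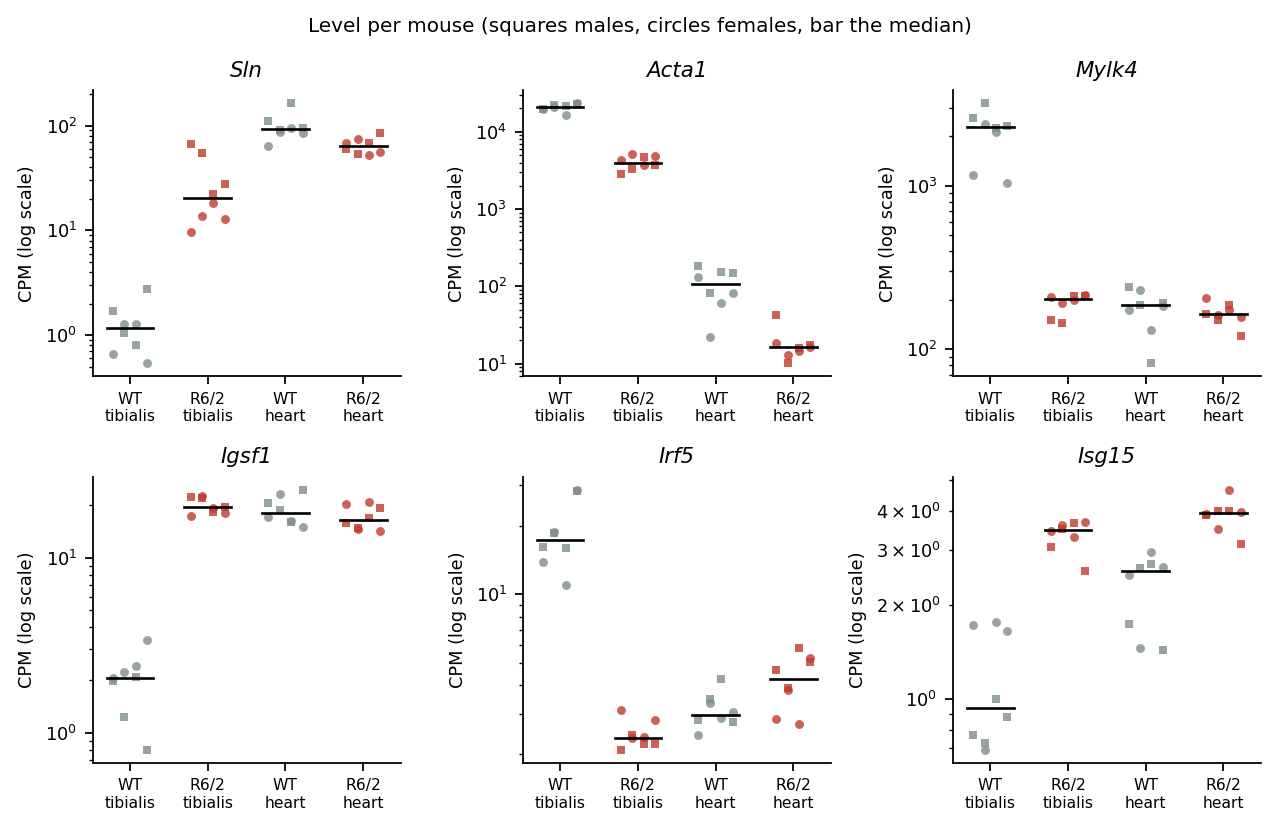
CPM per mouse (y axis, log scale) of 6 genes in the 4 groups (x axis), 8 mice each, squares for males, circles for females and a bar at the median. Sln and Igsf1 rose and Mylk4 and Irf5 fell in tibialis alone or with an opposite change in heart; Acta1 and Isg15 moved the same way in both tissues.

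Opposite changes that passed in both tissues and in the interaction were found for 117 genes (0.828%), 68 up in tibialis and down in heart (0.481%) and 49 the other way (0.347%). Under all 3 scalings the interaction call held for 63 of the 68 and 15 of the 49. Leaving out 1 mouse moved the count of opposite genes between 68, without R6/2 mouse F2, and 164, without wild-type mouse M3. Leading the first kind after Sln was Ogdhl (chromosome 14, 32322019 to 32348151), a relative of the 2-oxoglutarate dehydrogenase subunit. It ran from 1.54 to 2.9 CPM in wild-type and from 2.58 to 5.75 in R6/2 tibialis, but from 70.9 to 126 in wild-type and from 22.6 to 66.3 in R6/2 heart, where the groups did not overlap, as the tibialis groups did. The effects were 1.19 ± 0.17 in tibialis and -1.25 ± 0.21 in heart (interaction 2.46 ± 0.18, edgeR adjusted p = 2.07e-08). Gstm7, a glutathione transferase, went from 1.65 to 6.44 CPM in tibialis and from 29.2 to 23.5 in heart (2.13 ± 0.15). Myom3, a protein of the sarcomere's M band, went from 36.6 to 83.4 CPM in tibialis and from 3.48 to 2.01 in heart (1.88 ± 0.25), and Abracl from 2.45 to 7.56 and from 16.4 to 13.9 (1.88 ± 0.13). The heart fall of Abracl was -0.22 ± 0.07, and scaled by library totals it missed the threshold (edgeR adjusted p = 0.312).

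Of the genes that fell in tibialis and rose in heart, the rule named 5, among them several known from blood cells. Irf5 (chromosome 6, 29526625 to 29541871), a transcription factor of innate immunity, ran from 11 to 28.8 CPM in wild-type and from 2.09 to 3.13 in R6/2 tibialis. Its heart groups overlapped, from 2.43 to 4.27 and from 2.71 to 5.85 CPM, and its effects were -2.92 ± 0.19 and 0.44 ± 0.14 (interaction -3.31 ± 0.23, edgeR adjusted p = 1.38e-08). Itga4, an integrin of leukocytes, went from 37.1 to 23.2 CPM in tibialis and from 4.87 to 10.2 in heart (-1.56 ± 0.22). Pik3cd, the leukocyte PI3-kinase catalytic subunit, went from 19 to 11 and from 5.15 to 7.97 CPM (-1.33 ± 0.15). The tibialis falls of Itga4 and Pik3cd were lost by library totals (-0.09 for each, edgeR adjusted p = 0.662 and 0.375), where the interactions stood at -1.07 and -0.85. Rps6ka1, a ribosomal S6 kinase (-1.52 ± 0.19), and Spns2, the transporter that exports sphingosine-1-phosphate (-1.50 ± 0.14), passed in both tissues by library totals as well. Leukocyte markers in all summed to 191 to 454 CPM in wild-type and 226 to 447 in R6/2 tibialis, and to 345 to 536 and 421 to 1367 in heart. Their part in these results was not tested.

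A larger effect in heart than in tibialis was the exception. Of the 1149 genes that passed in both tissues in 1 direction (8.13%), 389 also passed the interaction test as larger in tibialis and 3 as larger in heart (0.0212%). Elovl6, which elongates fatty acids, ran from 1.77 to 12.6 CPM in wild-type and from 4.44 to 26.7 in R6/2 heart, overlapping ranges with medians of 2.73 and 10.4. Its tibialis medians were 1.73 and 1.58, and the interaction was -2.35 ± 0.52 (edgeR adjusted p = 0.00282). Adipocyte markers had a median heart effect of 0.82 over 11 genes, of which none passed in heart, and summed to 383 to 979 CPM in wild-type and 546 to 1460 in R6/2 heart. The brown fat gene Ucp1, picked after its values were seen, had heart medians of 4.51 and 39.3 CPM, and at most 79.5 and 84.1. The part of fat in the Elovl6 result was not tested. Ifit3b, an interferon-induced gene, ran from 1.04 to 3.21 CPM in wild-type heart and from 3.85 to 6.93 in R6/2 heart without overlap. Its tibialis medians were 4.65 and 4.86 (-1.29 ± 0.16), though scaled by library totals it rose in tibialis as well (0.64, edgeR adjusted p = 0.000456). It is a near-identical relative of Ifit3, and reads shared between them could have been split. Irf4 (heart effect 1.48 ± 0.42), Dock2 (1.07 ± 0.24) and Lyz1, which passed in heart as higher and are all known from leukocytes, had interactions of -1.35, -0.85 and -1.05, none of which passed by library totals (edgeR adjusted p = 0.0806, 0.321 and 0.193). The calls of Dock2 and Lyz1 were each lost in 9 of the 16 fits that left out 1 mouse, and their highest adjusted p over all alternatives were 0.487 and 0.484. On the falling side, Ramp1, a co-receptor for calcitonin gene-related peptide, ran from 4.46 to 8.23 CPM in wild-type and from 3.02 to 3.93 in R6/2 heart, against 58.0 and 59.7 at the median in tibialis (0.90 ± 0.12, edgeR adjusted p = 1.79e-05). Scaled by library totals, Ramp1 rose in tibialis (0.63, edgeR adjusted p = 4.21e-07), near the all-gene median of 0.61 there. Snai3 (heart -1.18 ± 0.24), Agt, the angiotensin precursor (-0.85 ± 0.21), and Foxo6os (-1.03 ± 0.24) had interactions of 1.57, 1.08 and 0.48, the last of which was lost without R6/2 mouse F2 or wild-type mouse M1.

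Of the genes named for a shared fall, Acta1 had the largest effects in both tissues. It encodes skeletal alpha-actin (chromosome 8, 123891769 to 123894751), which the adult mouse heart makes at a low level beside cardiac actin. In tibialis it ran from 16271 to 23451 CPM in wild type and from 2844 to 5195 in R6/2. Heart ran from 22.2 to 181 CPM in wild type (median 107) and from 10.1 to 42.9 in R6/2 (median 16.2). The tibialis groups did not overlap and the heart groups did. The effects were -2.34 ± 0.12 and -2.48 ± 0.36, and the interaction of 0.08 ± 0.38 did not pass (edgeR adjusted p = 0.893). Tnnt3, fast troponin T, had a wild-type tibialis median of 18861 CPM and heart medians of 0.424 and 0.351, with at most 6.24 in a heart library. Of 757 genes that passed in both tissues in the same direction without an interaction call (5.36%), the rule named 4 more that fell. Atcay (-1.41 in tibialis and -0.93 in heart), Map3k6 (-1.09 and -0.93), Ip6k3, an inositol hexakisphosphate kinase (-1.14 and -0.87), and Timp4, a metalloprotease inhibitor (-0.93 and -0.76), held by library totals except for Timp4 in tibialis (edgeR adjusted p = 0.0906).

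The interferon response was the gene list that rose as a whole in both tissues. Its members, like those of the other lists, were chosen with earlier results of these data known. These genes are induced through the receptors for type I interferons and their STAT and IRF factors. All 30 listed genes passed as higher in tibialis and all 30 in heart, where 3.26% of all genes passed as higher in both, with median effects of 1.26 and 0.77. By library totals all 30 passed in both tissues too, with medians of 1.84 and 0.89. The interaction was positive for 14 and negative for 1, and 13 of the 14 were scaling-independent. Isg15, a ubiquitin-like modifier, ran from 0.69 to 1.77 CPM in wild-type and from 2.56 to 3.68 in R6/2 tibialis, and from 1.44 to 2.94 and from 3.14 to 4.67 in heart, with no overlap in either tissue. Its effects were 1.60 ± 0.17 and 0.79 ± 0.15, and its interaction was 0.80 ± 0.16 (edgeR adjusted p = 0.000766). Ifi44 (interaction 0.90 ± 0.13), Oasl2 (0.83 ± 0.11) and Oas2 (0.79 ± 0.16), the latter a sensor of double-stranded RNA, also rose more in tibialis. Ifit3, Ifit2 and Usp18, of the same list, passed in both tissues without an interaction call, as did the macrophage receptor gene Siglec1 and the MHC gene H2-T24. Ifit3 ran from 2.25 to 7.96 CPM in wild-type and from 10.2 to 14.3 in R6/2 tibialis, and from 2.8 to 9.24 and from 13.6 to 20.2 in heart (1.77 ± 0.20 and 1.35 ± 0.17). The negative exception was Lgals3bp (-0.35 ± 0.10), named after its value was seen. Outside the list, the interferon-induced Ifit3b did not pass in tibialis by TMM (0.06 ± 0.12). Scaled by library totals it passed there as higher (0.64, edgeR adjusted p = 0.000456), near the all-gene median of 0.61. The IRF factor Irf5 fell in tibialis (-2.92 ± 0.19).

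The start regions of Isg15 and Ifit3, which rose without overlap in both tissues, show the letters these promoters share. RefSeq's promoter table in GRCm38.p6 gives 250 bases before to 50 after each annotated start, and 20 of the 30 genes are in it. The interferon-stimulated response element was searched as GAAA, any 2 bases and GAAA on both strands, and matches may overlap. It was found for 11 of the 20 genes (55%), or 12 of their 23 start regions (52.2%), against 3.44% of all 32851 start regions in the table. Isg15 (chr4:156200769-156201068, minus strand) has 3 overlapping matches that begin 78, 72 and 66 bases before its start, and Ifit3 (chr19:34583279-34583578, plus strand) has 2, beginning 156 and 122 bases before its start. Both are written 5′ to 3′ on the gene's strand with the matches in capitals.
Isg15: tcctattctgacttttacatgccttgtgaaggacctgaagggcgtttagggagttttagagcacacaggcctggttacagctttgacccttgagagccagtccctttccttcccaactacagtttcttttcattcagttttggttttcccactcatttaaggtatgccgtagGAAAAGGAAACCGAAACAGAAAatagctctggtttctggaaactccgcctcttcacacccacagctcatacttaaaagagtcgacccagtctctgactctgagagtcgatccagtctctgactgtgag
Ifit3: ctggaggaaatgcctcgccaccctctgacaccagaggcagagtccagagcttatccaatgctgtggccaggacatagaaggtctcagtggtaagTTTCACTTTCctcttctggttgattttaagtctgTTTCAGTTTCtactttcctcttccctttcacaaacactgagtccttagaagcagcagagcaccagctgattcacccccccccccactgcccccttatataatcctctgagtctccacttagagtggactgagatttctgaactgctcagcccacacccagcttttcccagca

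Of the pathway lists, fast contractile genes had the median interaction furthest from that of all genes. Of 26 listed genes 17 had counts in both tissues, and all 17 fell in tibialis while 2 fell in heart. Several were close to absent in heart, such as Ryr1, Tnnt3 and Mylpf, with wild-type medians of 0.279, 0.424 and 0.488 CPM. A heart fall of such genes could hardly be detected, as with Tnnt3 (-0.38 ± 0.94). Whether levels this low are traces of dissection was not tested. Of all genes, 24.6% fell in tibialis and 7.21% in heart, and 18% had a negative interaction. By library totals 15 fell and 1 rose in tibialis, and 2 fell in heart. The interaction was negative for 10 and positive for none, 7 of them scaling-independent, with a median 1.23 log2 units below that of all genes. The 26 genes together took 222995 to 252742 CPM in wild-type tibialis, and 53321 to 74391 in R6/2. In heart they summed to 6653 to 8762 CPM and 5377 to 6992. Mybpc2, fast myosin-binding protein C, ran from 3918 to 4714 CPM in wild-type and from 859 to 1097 in R6/2 tibialis, with heart medians of 14.6 and 15.9 (-2.26 ± 0.12). Tpm1, alpha-tropomyosin, fell in both tissues but further in tibialis, from a median of 16246 to 3873 CPM against 5552 to 3893 in heart (-1.63 ± 0.12). Aldoa, muscle aldolase, had an interaction of -1.85 ± 0.11. The fast myosin genes Myh4, Myh1 and Myh2 were too low in heart to be tested. In tibialis the wild-type and R6/2 medians stood at 50041 and 11247 CPM for Myh4 and at 12520 and 3777 for Myh1. Myh2, named after its values were seen, differed less, with medians of 1394 and 1014 CPM and overlapping groups that reached 1748 and 1588. The calcium buffer Pvalb, also untested, stood at 10467 and 1922 CPM.

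The start regions of Mylk4, which fell in tibialis and not detectably in heart, and of Acta1, which fell in both, hold a motif common among these genes. The E-box letters CAGCTG, read the same on both strands, are those that myogenic factors such as MyoD are known to bind. They were found for 8 of the 12 fast fibre genes in the RefSeq table (66.7%), or 8 of their 15 start regions (53.3%), against 16.3% of all start regions. Among the 10 largest and 10 smallest interactions, 6 and 5 genes were in the table, and only Mylk4 had a match. Mylk4 (chr13:32783915-32784214, minus strand) has it beginning 64 bases before its start, and Acta1 (chr8:123894726-123895025, minus strand) 221 bases before. Capitals mark the E-box.
Mylk4: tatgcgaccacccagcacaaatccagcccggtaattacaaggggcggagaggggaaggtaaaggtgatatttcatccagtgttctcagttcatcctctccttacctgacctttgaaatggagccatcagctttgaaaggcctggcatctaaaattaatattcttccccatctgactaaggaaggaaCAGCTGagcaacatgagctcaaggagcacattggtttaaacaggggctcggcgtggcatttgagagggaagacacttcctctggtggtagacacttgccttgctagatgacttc
Acta1: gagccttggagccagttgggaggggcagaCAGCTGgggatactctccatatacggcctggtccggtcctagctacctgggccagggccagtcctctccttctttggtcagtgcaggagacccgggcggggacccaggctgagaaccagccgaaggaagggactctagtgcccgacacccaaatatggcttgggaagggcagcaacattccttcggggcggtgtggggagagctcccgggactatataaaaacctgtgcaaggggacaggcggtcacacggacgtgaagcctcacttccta

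Slow fibre genes, many of which are also the cardiac forms, had positive interactions where called. The interaction was positive for 6 of 15, against 14.9% of all genes, and negative for none, with a median 0.93 above all genes. All 6 were scaling-independent, as were 90% of positive calls in general. In tibialis 5 rose and 2 fell, a share of rises near that of all genes (26.2%), and in heart 9 fell, where 7.21% of all genes did. By library totals 10 rose in tibialis, while 1 rose and 6 fell in heart. Casq2, the cardiac calsequestrin that stores calcium in the sarcoplasmic reticulum, ran from 34.3 to 109 CPM in wild-type and from 159 to 306 in R6/2 tibialis, with overlapping heart groups at medians of 869 and 682 (2.27 ± 0.18, edgeR adjusted p = 4.77e-08). Fhl2, a LIM-domain adaptor, went from 1.06 to 1.58 CPM in tibialis and from 1168 to 894 in heart (0.90 ± 0.18), and Myoz2, a calcineurin-binding protein of the Z disc, from 57 to 85.4 in tibialis, with a heart effect of -0.38 ± 0.09 (0.85 ± 0.18). The list's summed level ran from 273 to 762 CPM in wild-type and from 522 to 1183 in R6/2 tibialis, which overlapped.

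Sarcomere genes used by both tissues had mostly negative interactions, with a median 0.29 below all genes by TMM or library totals and 0.28 on FPKM. Of 24 tested, 15 fell and 3 rose in tibialis and 8 fell in heart, and by library totals 9 fell and 12 rose in tibialis and 4 fell in heart. The interaction was negative for 12 and positive for 3, against 18% and 14.9% of all genes, with 7 and 3 scaling-independent. Mb, myoglobin, ran from 3370 to 5818 CPM in wild-type and from 858 to 1456 in R6/2 tibialis, and from 7696 to 10531 and from 5836 to 6955 in heart, with no overlap in either tissue (-1.47 ± 0.14). Ckm, muscle creatine kinase, fell from 16138 to 4972 CPM in tibialis and from 1297 to 963 in heart (-1.29 ± 0.14). Tcap, which caps titin, and Xirp2, of the intercalated disc and myotendinous junction, fell in tibialis (interactions -1.65 ± 0.18 and -1.18 ± 0.11) and had heart effects of -0.15 ± 0.17 and -0.04 ± 0.09. In the cardiac contractile list 7 of 15 were negative and 2 positive, 2 of each scaling-independent, and the positive share was near that of all genes. Among them were Ttn, titin (-1.11 ± 0.13), and, as a positive, Smpx (0.68 ± 0.09), which rose in tibialis and fell in heart. Myh6, the alpha myosin of the heart, fell there from 23035 to 18423 CPM and in tibialis from 5.79 to 0.956 CPM, a level within what a trace of another tissue could give, which was not tested.

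**Figure D4:**
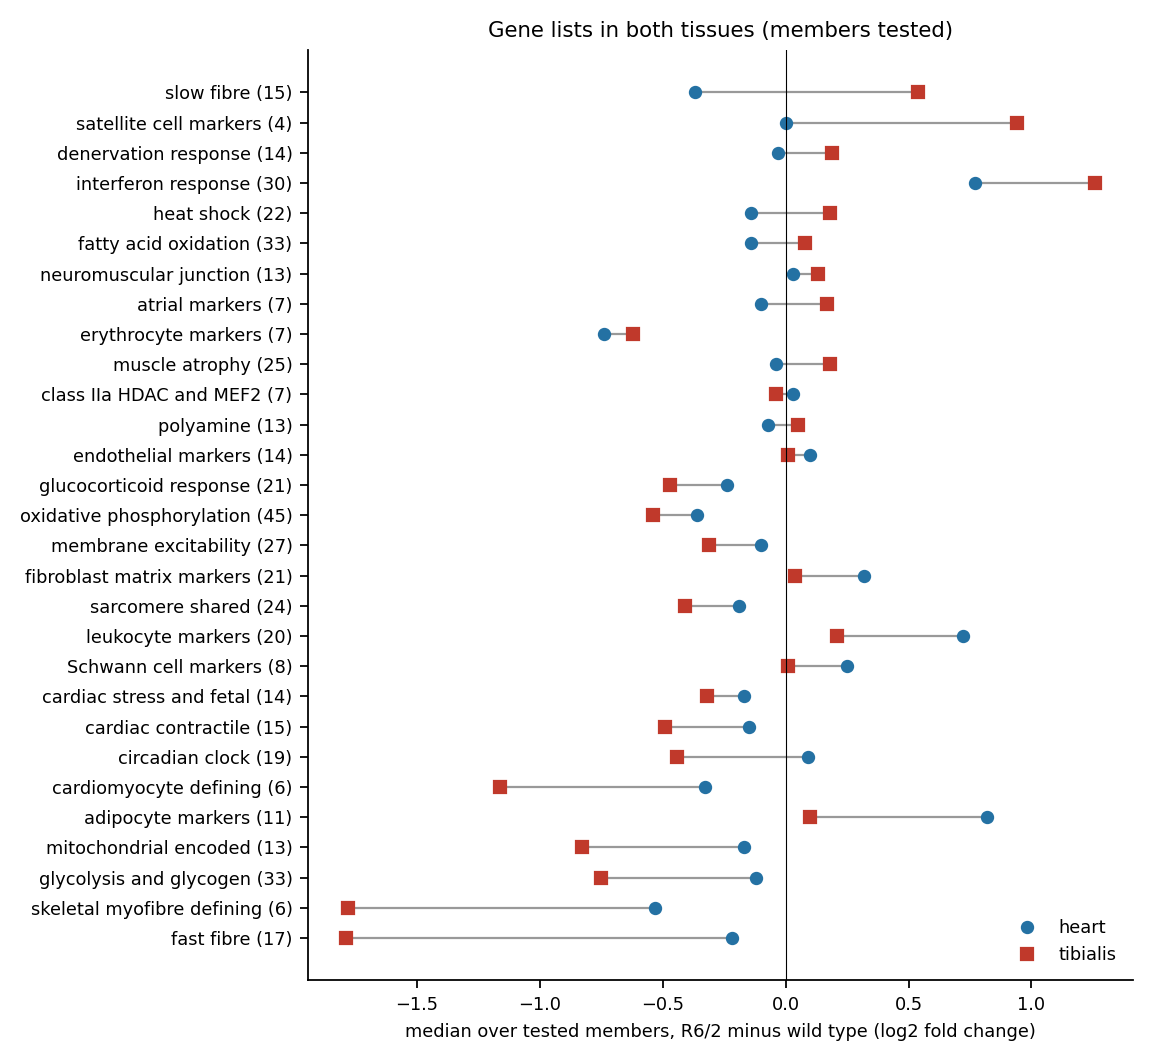
Median genotype effect (x axis, log2 fold change, TMM-scaled) over the tested members of each gene list (y axis, number tested in brackets) in tibialis (red squares) and heart (blue circles), ordered by the median interaction. Fast fibre genes stand at -1.79 and -0.22, slow fibre genes at 0.54 and -0.37 and interferon genes at 1.26 and 0.77. By library totals the median gene stood at 0.61 in tibialis.

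Genes of glucose use fell in tibialis more than in heart. Of 33 genes of glycolysis and glycogen metabolism, 26 fell and 3 rose in tibialis and 8 fell in heart, against 18 fallen and 9 risen in tibialis and 2 fallen in heart by library totals. The interaction was negative for 24 and positive for 2, against 18% and 14.9% of all genes. Of these 15 and 2 were scaling-independent, and the list's median was 0.72 below all genes. Ldha, lactate dehydrogenase A, ran from 2530 to 3413 CPM in wild-type and from 792 to 1010 in R6/2 tibialis, with overlapping heart groups at medians of 498 and 468 (-1.58 ± 0.09). Pfkm, muscle phosphofructokinase, fell from 4584 to 1669 CPM in tibialis and stood at 865 and 758 in heart (-1.31 ± 0.08). Slc16a3, the lactate exporter of glycolytic fibres, fell from 261 to 55.4 CPM (-2.32 ± 0.16), and Slc2a4, the insulin-responsive glucose transporter outside the rule's first 4, fell in both tissues (-1.21 ± 0.06 and -0.16 ± 0.05).

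Respiratory chain genes fell in both tissues by TMM, and somewhat further in tibialis relative to all genes. Of 45 nuclear genes of oxidative phosphorylation, 44 fell in tibialis and 36 in heart, and by library totals 19 rose and 5 fell in tibialis while 23 fell in heart. The interaction was negative for 18 by TMM and for none by library totals, where 28 were positive, as were 65.7% of all genes. Relative to all genes the list's median stood at -0.20 under TMM and library totals, which can hardly differ in this measure, and at -0.17 on FPKM values. Uqcrc1, a core subunit of complex III, fell from 744 to 375 CPM in tibialis and from 812 to 642 in heart (-0.67 ± 0.10). All 13 protein-coding genes of the mitochondrial genome had negative interactions, 2 of them scaling-independent, and stood 0.64 below all genes. Of these, mt-Co1, a subunit of complex IV, ran from 87615 to 109864 CPM in wild-type and from 43404 to 52700 in R6/2 tibialis, and its heart groups overlapped at medians of 119120 and 104894 (-0.87 ± 0.11). As a share of counts, mitochondrial transcripts took 22 to 24.6% in wild-type and 18 to 21.4% in R6/2 tibialis, and 29.6 to 33.1% and 28.4 to 32.3% in heart. Of 33 fatty acid oxidation genes 9 rose and 7 fell in tibialis and 4 fell in heart, and 9 interactions were positive, against 14.9% of all genes, and 3 negative. The 9 positive ones were scaling-independent and the 3 negative ones were not, where 90% and 10.9% of such calls were in general. Cpt1a, which admits fatty acids to mitochondria, rose from 12.2 to 27.0 CPM in tibialis and stood at 51.0 and 61.4 in heart (0.90 ± 0.11).

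Counts of risen genes in the nerve-muscle synapse and denervation lists were not far above the 26.2% of all genes that rose in tibialis, but single members moved by large factors. Of 13 synapse genes with counts in both tissues, 5 rose and 1 fell in tibialis and 1 rose and 1 fell in heart, while by library totals 12 rose and none fell in tibialis, where 82.1% of all genes rose. Interactions were positive for 4 and negative for 1, all scaling-independent. Colq, the collagen tail of acetylcholinesterase, ran from 4.92 to 8.8 CPM in wild-type and from 9.59 to 39.2 in R6/2 tibialis, with overlapping heart groups at medians of 7.46 and 6.51 (1.96 ± 0.20). Lrp4, the agrin receptor, rose from 18.6 to 40.0 CPM in tibialis (0.80 ± 0.11), Chrnb1, the beta subunit of the acetylcholine receptor, rose from 41.8 to 67.9 (0.67 ± 0.13), and Ache, the esterase itself, fell from 32.8 to 18.5 (-0.90 ± 0.10). Genes near 0 in heart had no interaction test. Among them the wild-type and R6/2 tibialis medians stood at 16.9 and 76 CPM for the receptor subunit Chrna1, with at most 18.7 in a wild-type library, at 5.2 and 24 for the synaptic kinase Musk and at 13.9 and 6.57 for the adult subunit Chrne. Musk and Chrne were chosen after their values were seen, and in these 3 genes the heart medians were at or below 0.109 CPM. The myogenic factor Myog stood at 4.09 and 7.93 CPM in tibialis, where its groups overlapped, and at 0 in heart. Of the 6 untested synapse genes the R6/2 tibialis median was higher for 3 and lower for 2, Chrne and Chrnd, and of the 12 untested denervation-response genes it was higher for 4 and lower for 7. Among the latter, Dach2 stood at 4.34 and 1.24 CPM, Fgfbp1 at 2.55 and 0.0233 and Myod1 at 15.7 and 13.3, all picked after their values were seen.

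Of 14 denervation-response genes tested, 5 rose and none fell in tibialis and 2 rose in heart. Interactions were positive for 5, of which 3 were scaling-independent, while Runx1 and Trp63 were not in the FPKM fit. Ampd3, an AMP deaminase, ran from 9.87 to 15 CPM in wild-type and from 41.1 to 55.7 in R6/2 tibialis, while its heart medians were 40.8 and 40.7 (2.08 ± 0.12, edgeR adjusted p = 5.84e-10). Runx1, a transcription factor, rose in both tissues, from 2.82 to 9.74 CPM in tibialis and from 1.77 to 2.33 in heart (1.22 ± 0.22), and Gadd45a rose from 17.9 to 33.7 CPM in tibialis (0.95 ± 0.15). Cdkn1a, a cell cycle inhibitor, passed in neither tissue alone but had an interaction of 1.26 ± 0.23. Of 25 atrophy genes, 12 rose and 3 fell in tibialis and 3 rose in heart, against 26.2%, 24.6% and 7.06% of all genes. Interactions were positive for 6, all scaling-independent, and negative for 2, 1 of them so, against 14.9% and 18% of all genes. Of all positive calls, 90% were scaling-independent. The protease gene Ctsl (0.77 ± 0.08) and the stress regulator Sesn1 (0.95 ± 0.10) rose, and the ubiquitin ligase subunit Fbxo40 fell (-0.77 ± 0.09). Satellite cell markers with counts in both tissues numbered 4, and having counts in heart these are not specific to skeletal muscle. Sdc4, Msc and Vcam1 rose in tibialis, with scaling-independent interactions of 0.95 ± 0.12, 1.28 ± 0.20 and 0.57 ± 0.13. Over all genes 26.2% rose in tibialis and 14.9% had a positive interaction. Of the 5 untested markers the R6/2 tibialis median was higher for 4, as for Pax7 (3.16 and 5.44 CPM). It was lower for Cdh15 (14.5 and 13.2), named after its values were seen.

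Heat shock genes had mostly positive interactions. Of 22 heat shock genes 10 rose and 5 fell in tibialis and 7 fell in heart, against 26.2% of all genes rising in tibialis and 7.21% falling in heart. By library totals 19 rose and 1 fell in tibialis, near the 82.1% of all genes, and 4 fell in heart. The interaction was positive for 12 and negative for 3, against 14.9% and 18% of all genes, with a median 0.39 above all genes. All 12 positive and none of the negative calls were scaling-independent, as were 90% and 10.9% of such calls in general. Hsp90aa1, the inducible HSP90, ran from 46.0 to 67.3 CPM in wild-type and from 72.2 to 89.9 in R6/2 tibialis, with overlapping heart groups at medians of 110 and 104 (0.70 ± 0.06). Hspb8, a small heat shock protein of muscle, rose from 273 to 318 CPM in tibialis and fell from 371 to 298 in heart, without overlap there (0.54 ± 0.08). Hsf1, the master regulator of the heat shock response, had a tibialis effect of -0.53 ± 0.06 and an interaction of -0.45 ± 0.08, which on FPKM values was 0.09.

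Clock and glucocorticoid genes had mostly negative interactions by TMM, of which few held across scalings, as for negative calls in general. Of all genes 18% were negative and 14.9% positive by TMM, and 2.76% and 65.7% by library totals. Of 19 clock genes 11 were negative and none positive by TMM, with 1 scaling-independent, and by library totals 2 were negative and 5 positive. Bhlhe41, a repressor within the clock, fell in tibialis from 56.9 to 23.4 CPM and stood at 22.6 and 24.0 in heart (-1.23 ± 0.15). Of 21 glucocorticoid response genes 7 were negative and 1 positive, of which 3 and 1 were scaling-independent, and by library totals 3 were negative and 8 positive. Sgk1, a kinase induced by corticosteroids, ran from 249 to 364 CPM in wild-type and from 44.2 to 90.2 in R6/2 tibialis, with heart medians of 47.1 and 42.8 (-2.22 ± 0.16). Arrdc2 fell from 107 to 18 CPM (-2.16 ± 0.15) and Tsc22d3, which encodes GILZ, from 302 to 126 (-1.14 ± 0.08), both in tibialis. Polyamine genes split evenly, with 4 positive and 4 negative of 13. Among ion channel and pump genes 11 of 27 were negative and 3 positive, 3 and 2 of them scaling-independent, against 3 negative and 11 positive by library totals. Atp1b1, a subunit of the sodium pump, fell in both tissues (-1.18 ± 0.10 and -0.25 ± 0.06).

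The class IIa histone deacetylases, which restrain MEF2 factors in muscle and are the targets of the compound given to the other mice of the series, did not pass the interaction test by TMM. Hdac4 had medians of 48.3 and 44.1 CPM in tibialis and 23.9 and 24.1 in heart (interaction -0.07 ± 0.10), and Hdac5 56.1 and 61.6 in tibialis and 66.6 and 65.5 in heart (0.13 ± 0.12). Hdac7 stood at -0.03 ± 0.09, Hdac9 at -0.18 ± 0.14, Mef2a at 0.01 ± 0.10 and Mef2c at -0.17 ± 0.10, and the adjusted p of these 6 ran upward from that of Mef2c, 0.222. By library totals Hdac4, Hdac5, Hdac7, Mef2a and Mef2c passed as positive, at 0.32 to 0.62, around the all-gene median of 0.46. Mef2d ran from 227 to 275 CPM in wild-type and from 166 to 190 in R6/2 tibialis, and from 134 to 151 and from 132 to 155 in heart (-0.47 ± 0.06, edgeR adjusted p = 1.90e-05). With library totals or FPKM its interaction was 0.02 or 0.08 and did not pass, against medians over all genes of 0.46 and 0.50. Htt, the mouse gene, had medians of 25.4 and 28.3 CPM in tibialis and 34.0 and 33.9 in heart, and its interaction of 0.24 ± 0.09 did not pass (edgeR adjusted p = 0.0571), while by library totals it was 0.72 (edgeR adjusted p = 2.04e-05).

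By TMM more markers of leukocytes and fibroblasts rose in heart than in tibialis, while by library totals or on FPKM more rose in tibialis. Relative to all genes their median interactions were -0.36 and -0.23, with -0.37 and -0.23 by library totals or FPKM. Of 20 leukocyte markers 11 rose in heart and none fell, against 2 risen and 1 fallen in tibialis, against 7.06% and 26.2% of all genes risen. By library totals 16 rose in heart and 18 in tibialis, where 25.6% and 82.1% of all genes did. By TMM the interaction was negative for 2 of the 20, Ighm and Itgax (-0.88 ± 0.32), against 18% of all genes. Cd74, the MHC class II invariant chain, ran from 40.7 to 78.7 CPM in wild-type and from 70.4 to 191 in R6/2 heart (1.01 ± 0.15), and in tibialis its effect was 0.46 ± 0.17, with an interaction of -0.52 ± 0.21 that did not pass (edgeR adjusted p = 0.0724). Of 21 fibroblast and matrix markers 8 rose in heart and 2 in tibialis by TMM, against 15 and 18 by library totals. Of their interactions 5 were negative and 1 positive by TMM, against 18% and 14.9% of all genes. The positive one, Lox, was the only scaling-independent call. Pdgfra rose in heart from a median of 40.7 to 55.2 CPM and stood at 35.1 and 30.3 in tibialis (-0.56 ± 0.11, and -0.02 on FPKM). Endothelial markers had 6 negative interactions of 14, none scaling-independent, and Schwann cell markers none of 8, where 18% of all genes were negative. The adipocyte markers with called interactions were Car3 and Cidea (1.60 ± 0.18), which muscle also expresses. Erythrocyte markers fell in heart for 3 of 7, with sums of 3189 to 7466 and 1516 to 4191 CPM, and atrial markers summed to 2876 to 4841 CPM in wild-type and 2289 to 3451 in R6/2 heart. These atrial sums overlapped between the genotypes and include Sln and Myl4 themselves. Both genes fell in heart, Myl4 by -0.54 ± 0.16, and the part of atrial tissue in the heart fall of Sln was not tested. Cardiac stress genes were negative for 5 and positive for 2 of 14, against 18% and 14.9% of all genes, so the positive share was near that of all genes. Nmrk2, a nicotinamide riboside kinase of this list, stood at -2.30 ± 0.24 through its tibialis fall.

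The interaction was tested for a difference between the sexes, and 1 gene passed (0.00708%), Amd1, chosen after its value was seen, the S-adenosylmethionine decarboxylase of polyamine synthesis. Its interaction was -2.29 in males and -0.19 in females, a difference of -2.10 (edgeR adjusted p = 0.00452), and its wild-type tibialis libraries spread from 201 to 1043 CPM. Scaled together with the 2 dose groups and given only as a description, the median of Sln in tibialis was 1.23 CPM in wild type, 21.5 in R6/2 on vehicle, 22 at 30 mg/kg and 21.5 at 100 mg/kg. The corresponding heart medians were 97.9, 67.2, 71.4 and 81.8 CPM. Mylk4 in tibialis stood at 2403, 216, 224 and 174 CPM in the same order, and Acta1 in heart at 113, 17.1, 28.7 and 16.1.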

How the data were processed

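RNA of frozen tissue was extracted as total RNA and sequenced on Illumina instruments, and CASAVA 1.8.2 is named in the submitters' processing notes. For the aligner, quantifier, build and annotation, nothing is given in the sources used here. Deposited were expected counts per gene, and 67.7% of the deposited expected counts above 0 were whole; they were rounded here. The deposited FPKM values, the authors' own scaling by length and depth, served as an alternative (limma 3.58.1 on log2(FPKM + 0.1), mean FPKM of at least 0.5 in each tissue). Of 43432 gene IDs 42462 were matched to a symbol (GENCODE M21, GRCm38), and 0 value columns went unused.

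Genes had to pass edgeR's filterByExpr in each tissue, so a gene can pass through 1 genotype. edgeR 4.0.16 in R 4.3.3 fitted its quasi-likelihood model with mouse, tissue, tissue by sex and tissue by genotype terms to the 32 libraries, with TMM scaling and 13 residual degrees of freedom. Each tissue was also fitted alone with genotype and sex. Adjusted p-values are Benjamini-Hochberg over all 14127 genes, with a threshold of 0.05. Effects are log2 fold changes, and their SE is the size of the effect divided by the square root of F. Tests compare separate mice, and intervals from counting alone are not given.

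The labels give the animal of each library, and the mouse was therefore a block. The deviations of a mouse's tibialis from its group correlated with those of its own heart in all 16 mice (0.13 to 0.49, median 0.33). On simulated counts for 14127 genes, 70% of 100 genes changed by 0.5 log2 and 96% of 100 changed by 1 were recovered, with 7 wrong calls, and with no change there were 0 calls. These counts were drawn independently, without mouse effects or a shift of the scaling. The changed genes had a mean log2 CPM of at least 1 in each tissue and moved in random directions. The data differ in these respects, so the rates need not carry over to them.

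The members and gene lists were chosen with earlier results of these data known. Genes were named by a rule: mean log2 CPM of at least 1 in each tissue, the same sign of interaction in both sexes and no predicted genes. It took the 10 largest and 10 smallest interactions, and 5 each way of opposite changes, of larger heart changes and of shared changes. It also took up to 4 members per list by interaction p, defining markers, and Htt, Gm12695, Acta1, Sln, Chrna1, Myog and the class IIa HDAC and MEF2 genes. The sign in each sex was not asked of shared changes. Neither the level nor the sign was asked of list members, markers and the genes listed last. Slc2a4, Tnnt3, Pvalb and the genes so described in the text were chosen after their values were seen. Alternatives were other scalings, filters, DESeq2 1.42.0, no block, single sexes, all 32 mice, and each mouse left out; the 2 that left out mice by library property were chosen after seeing the data.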

Additional observations from a re-analysis of the deposited data

Results flagged for a closer look

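Opposite genotype effects in the 2 tissues, past both within-tissue tests and the test of the difference, were found for 117 genes. Those named by rule had interactions of 4.91 (Sln), 2.46 (Ogdhl), 2.13 (Gstm7), 1.88 (Myom3) and 1.88 (Abracl) for a rise in tibialis with a fall in heart. The reverse held for Irf5 (-3.31), Itga4 (-1.56), Rps6ka1 (-1.52), Spns2 (-1.50) and Pik3cd (-1.33). By library totals Itga4 and Pik3cd did not pass as lower in tibialis, and Abracl did not pass as lower in heart (-0.11, edgeR adjusted p = 0.312).

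Single libraries stood apart from the other 7 of their group, with a gap to the nearest above 0.526 of the group's range, in 9 of 108 groups of 8 (8.33%); chance gives about 1 in 20. In wild-type tibialis Cish was high in mouse M2, at 17.3 CPM against a median of 3.06 (gap 0.545 of the range), and Shroom3 was high in F1, at 1.72 against 0.649 (0.579). In F4 of that group Adamts8 was high, at 50.6 against 7.36 CPM (0.543), and Pik3cd low, at 11.5 against 19 (0.547). Among wild-type hearts Sh2d4a was low in M1, at 8.10 against 12.7 CPM (0.662), and Adamts8 high in M4, at 3.87 against 1.98 (0.574). Ighm was high in R6/2 tibialis F1, at 26.9 against 8.06 CPM (0.599), and in R6/2 heart M3, at 416 against 48.5 (0.617). Spns2 was high in R6/2 tibialis M3, at 20.8 against 17.3 CPM (0.575).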

How the results depend on the processing

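Library totals gave 9665 interaction calls, 12114 in tibialis, 3880 in heart and 3461 shared in direction, and FPKM with limma gave 9415, 10878, 3058 and 2758. The interaction of Mef2d turned from -0.47 to 0.02 and 0.08. Values that had not passed by TMM turned and passed for Hdac4 (0.42 and 0.40), Hdac7 (0.46 and 0.59) and Mef2c (0.32 and 0.36) under both, and for Hdac9 (0.35) and Timp4 (0.36) on FPKM, where the median over all genes moved to 0.50. Relative to all genes, the 29 list medians kept their sign under the 5 scalings. Scaling factors move all genes nearly alike, so only the FPKM fit could have changed these relative medians by much. Males alone gave 2783 interaction calls, 512 in heart, 25 opposite and 317 shared, and females alone 1795, 43 in heart, 0 opposite and 31 shared, with 4019 in tibialis; fewer mice were fitted. Without the mice of fewest long transcripts 185 were opposite, and without the 3 mice whose column names carry a dotted suffix 1085 passed in heart, 52 were opposite and 611 shared. Leaving out 1 mouse at a time gave 1336 (without R6/2 M3) to 2536 heart calls and 68 (without R6/2 F2) to 164 opposite genes; without R6/2 M1 and M3 and wild-type F1 and F3 these were 69, 70, 71 and 76. The paired fit is the one reported, and with no replicate block 4496 genes passed the interaction test. Over named genes and alternatives, 1510 values kept their side of the threshold, 27 newly passed with the same sign, 42 no longer passed and 10, those above, turned with a call in at least 1 fit. In all 40 values of 13 genes had the other sign, 30 of them past the threshold in neither fit, such as those of Acta1, Map3k6 and Ip6k3.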
